A study of Homo sapiens with 14 samples.

Results

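Extracellular vesicles (EVs) released by human epicardial cells under opposite settings of TGF-β signalling were compared through the 8 libraries of small RNA that the labels assign to TGF-β1 stimulation (TGFb, 4 libraries) or to the TGF-β receptor inhibitor SB-431542 (SB, 4 libraries), of 14 libraries in the series. The libraries were chosen by their labels alone, and all miRNAs with counts were described. All cells descended from hES-2 (a long-established line of human embryonic stem cells) and were plated from frozen stocks as pro-epicardial cells, the precursor stage of the epicardium. SB cells grew in supplemented StemPro medium with 6 µM SB-431542 for 8 days, and the labels call them mature epicardial cells. TGFb cells grew in that medium without the inhibitor, received 5 ng/ml TGF-β1 for 4 days beginning a day after plating, and then no additive for 4 days. The untreated group (NT, 3 libraries) received neither agent, and the FGF group (3 libraries) received 10 ng/ml basic FGF for 8 days. Both serve below for background values. From day 4 the medium was first cleared of particles over 100 kDa filters, and what the cells had conditioned for 48 h was taken on days 6 and 8. By this schedule SB-431542 was present while the SB vesicles collected, whereas TGF-β1 was no longer added when the TGFb vesicles collected. Nothing in the labels says that replicates were separate differentiations or cultures, so p-values measure only the spread between these libraries, which may be technical. No miRNA by itself defines epicardial cells, so the labelled cell type was not checked in this way.

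The epicardium is the outer cell layer of the heart. TGF-β binds a pair of receptor kinases that phosphorylate SMAD proteins, and in epicardial cells it drives the passage from an epithelial sheet to migrating mesenchymal cells, while SB-431542 blocks the type I receptor kinase and keeps the cells epithelial. A miRNA is a short RNA that represses messenger RNAs pairing with its seed, bases 2 to 8 from its 5′ end, and cells release part of their miRNAs in vesicles.

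The miRNAs that separated the groups most clearly belong to 3 seed families, and their mature sequences (RefSeq, GRCh38) are shown 5′ to 3′ with the seed in capitals. The first of each pair or set is encoded in 1 cluster on chromosome 19, and the relatives are shown because they share the seed but not the place in the genome.
miR-125a-5p: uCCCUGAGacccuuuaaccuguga
miR-125b-5p: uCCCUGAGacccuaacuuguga
let-7e-5p: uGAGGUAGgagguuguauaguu
let-7a-5p: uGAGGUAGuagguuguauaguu
let-7b-5p: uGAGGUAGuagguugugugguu
let-7i-5p: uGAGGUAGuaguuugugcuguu
miR-99b-5p: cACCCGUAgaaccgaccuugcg
miR-99a-5p: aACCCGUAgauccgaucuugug
miR-100-5p: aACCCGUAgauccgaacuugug
Over the 22 positions that each pair shares from the 5′ end, miR-125a-5p and miR-125b-5p differed at 7, miR-99b-5p differed from miR-99a-5p and from miR-100-5p at 4, and let-7e-5p differed from let-7a-5p at 1, from let-7b-5p at 3 and from let-7i-5p at 5. Since 1 base separates let-7e-5p from let-7a-5p, the split of counts between them is uncertain, and the alignment settings are not given in the sources used here.

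On GRCh38 (GENCODE 29), MIR99B lies at chr19:51692612-51692681, MIRLET7E at chr19:51692786-51692864 and MIR125A at chr19:51693254-51693339, all on the plus strand. The 3 hairpins span 728 bases inside an intron of SPACA6 and are overlapped on the other strand by an exon of the non-coding gene SPACA6P-AS. The genome holds related clusters in introns of 2 non-coding host genes. MIR100, MIRLET7A2 and MIR125B1 lie in MIR100HG on chromosome 11, and MIR99A, MIRLET7C and MIR125B2 lie in MIR99AHG on chromosome 21.

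Depth was low and unequal. In order of replicate number, total counts were 1418, 231, 7478 and 2770 for TGFb and 345, 179, 3826 and 1286 for SB. The TGFb library was the deeper one at each of the 4 replicate numbers, by 1.29 to 4.11 times. Mean log10 totals were 3.21 ± 0.636 (SD, n = 4) and 2.87 ± 0.593 (SD, n = 4), a difference that a two-sided exact permutation test did not separate from the spread (p = 0.457). Since depth moved with the groups at every number, a fit with the log10 total as a covariate and a fit of only the libraries with at least 500 counts are given beside the cluster. Where a count is 0, the library still allows a share of up to 3 counts, which was 1.30% in TGFb 2 and 1.68% in SB 2, the shallowest libraries, and 0.0401% in TGFb 3, the deepest. Intervals and limits from counts cover counting error only. All shares below are percentages of all miRNA counts of a library, so a higher share of one miRNA cannot be told apart from less RNA of the others.

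Of 2632 miRNAs in the table, 330 had a count in at least 1 of the 8 libraries. Both groups held 187 of them, 92 were counted only in TGFb and 51 only in SB, and 29 were counted in all 8 libraries. The miRNAs seen in a single group were rare: the TGFb-only ones summed to 182 of 11897 counts and the SB-only ones to 70 of 5636. Since the TGFb libraries were deeper, the larger number seen only in TGFb cannot be told apart from depth. The most counted of them was miR-193b-5p, with 0, 4, 2 and 3 counts in TGFb replicates 1 to 4 and 0 in SB. At a common depth of 179 counts, the expected number of different miRNAs was 49.2 ± 8.08 (SD, n = 4) in TGFb and 56.7 ± 6.44 (SD, n = 4) in SB (two-sided exact permutation p = 0.171). The 10 most abundant miRNAs of each library held 67.1% ± 9.60 (SD, n = 4) of the counts in TGFb and 56.6% ± 7.73 (SD, n = 4) in SB (two-sided exact permutation p = 0.143). The TGFb profile thus had the more concentrated mean, but the groups overlapped in both measures. Within replicate numbers 1 to 4, the top-10 share was 74.5%, 62.8%, 75.5% and 55.6% in TGFb against 61.2%, 52.5%, 64.8% and 48.0% in SB. The expected number of miRNAs was 43.4, 51.6, 42.2 and 59.6 against 50.4, 62.0, 51.8 and 62.4. Each measure thus had the same direction at every number.

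For the miRNAs that could be tested, 47 passed the filter on low counts, and they held 80.6% to 89.9% of the counts of each of the 8 libraries. In the fit by group alone, none of the 47 (0%) passed an edgeR adjusted p of 0.05, and none passed with DESeq2. With the replicate number added to the edgeR fit as a block, 3 of the 47 passed: let-7e-5p, miR-125a-5p and miR-483-5p (edgeR adjusted p = 0.0212 each). The labels do not say which fit applies, and the block result depends on single libraries, as given in the closing section. Without the block, edgeR gave an unadjusted p under 0.05 to 4 of the 47 (8.51%). All 4 had the higher level in TGFb: let-7e-5p, miR-125a-5p, miR-125b-5p and miR-99b-5p. In all, 20 of the 47 had a higher fitted level in TGFb and 27 in SB, with a median log2 fold change (TGFb minus SB) of -0.08. The median moved to -0.39 with library size in place of TMM scaling, to -0.36 with RLE factors and to 0.12 with library sizes taken over all miRNAs, so log2 fold changes are to be read relative to it. The median standard error of a log2 fold change was 0.83. The contrast between the groups held 15.2% of the variance of log2 CPM (counts per library total, after TMM scaling) over the 8 libraries (two-sided exact permutation p = 0.4).

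All 3 mature 5p miRNAs of the chromosome 19 cluster had a higher share in every TGFb library than in any SB library. miR-125a-5p, known for repressing genes of ERBB receptors, took 5.64%, 9.96%, 9.91% and 10.1% of the counts in TGFb replicates 1 to 4 and 2.90%, 1.12%, 4.70% and 4.28% in SB. The lowest TGFb library stood above the highest SB library. The counts behind these shares were 80, 23, 741 and 280 in TGFb and 10, 2, 180 and 55 in SB, so the SB 2 value rests on 2 counts. The mean shares were 8.90% ± 2.18 (SD, n = 4) and 3.25% ± 1.62 (SD, n = 4), and the log2 fold change was 1.61 (SE 0.50, 95% interval 0.58 to 2.63, edgeR adjusted p = 0.0898).

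let-7e-5p belongs to the let-7 family, which promotes differentiation and restrains growth genes. It took 2.75%, 4.33%, 4.36% and 5.63% in TGFb and 1.45%, 0.559%, 1.54% and 2.72% in SB. These groups were separated by little, since TGFb 1 at 2.75% stood just above SB 4 at 2.72%. The means were 4.27% ± 1.18 (SD, n = 4) and 1.57% ± 0.888 (SD, n = 4), with a log2 fold change of 1.59 (SE 0.50, 95% interval 0.56 to 2.62, edgeR adjusted p = 0.0898).

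miR-99b-5p, of the family whose best known target is the growth kinase mTOR, took 3.10%, 3.90%, 4.49% and 2.42% in TGFb and 1.16%, 2.23%, 2.20% and 1.32% in SB. Again no library of one group reached the range of the other, but the gap was small. The highest SB share, 2.23% in SB 2, rests on 4 of 179 counts. Its Wilson 95% interval included the lowest TGFb share, 2.42% in TGFb 4, so counting error alone could close this gap. Its means were 3.48% ± 0.907 (SD, n = 4) and 1.73% ± 0.567 (SD, n = 4), and its log2 fold change was 1.28 (SE 0.50, 95% interval 0.25 to 2.31, edgeR adjusted p = 0.258). Of the 47 miRNAs tested, these 3 (6.38%) were the ones whose shares in TGFb lay wholly above those in SB.

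Summed, the cluster held 11.5%, 18.2%, 18.8% and 18.2% of the counts in TGFb (mean 16.6% ± 3.45, SD, n = 4) and 5.51%, 3.91%, 8.44% and 8.32% in SB (mean 6.55% ± 2.22, SD, n = 4). The ratio of TGFb to SB within a replicate number was 2.09 (exact 95% interval 1.29 to 3.56), 4.65 (2.07 to 12.3), 2.22 (1.97 to 2.52) and 2.18 (1.77 to 2.71) for numbers 1 to 4. None of these intervals, which cover counting error only, reached 1. The 3 numbers with deeper libraries gave ratios within 2.09 to 2.22, and the larger ratio of number 2 came from the shallowest pair. With the log10 total of each library as a covariate, the log2 fold change was 1.43 for miR-125a-5p (edgeR adjusted p = 0.0757), 1.43 for let-7e-5p (edgeR adjusted p = 0.162) and 1.04 for miR-99b-5p (edgeR adjusted p = 0.363). Among libraries of at least 500 counts, which leaves 3 of TGFb and 2 of SB, the estimates were 1.33, 1.48 and 1.36 in the same order, each with an edgeR adjusted p of 0.856.

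**Figure D1:**
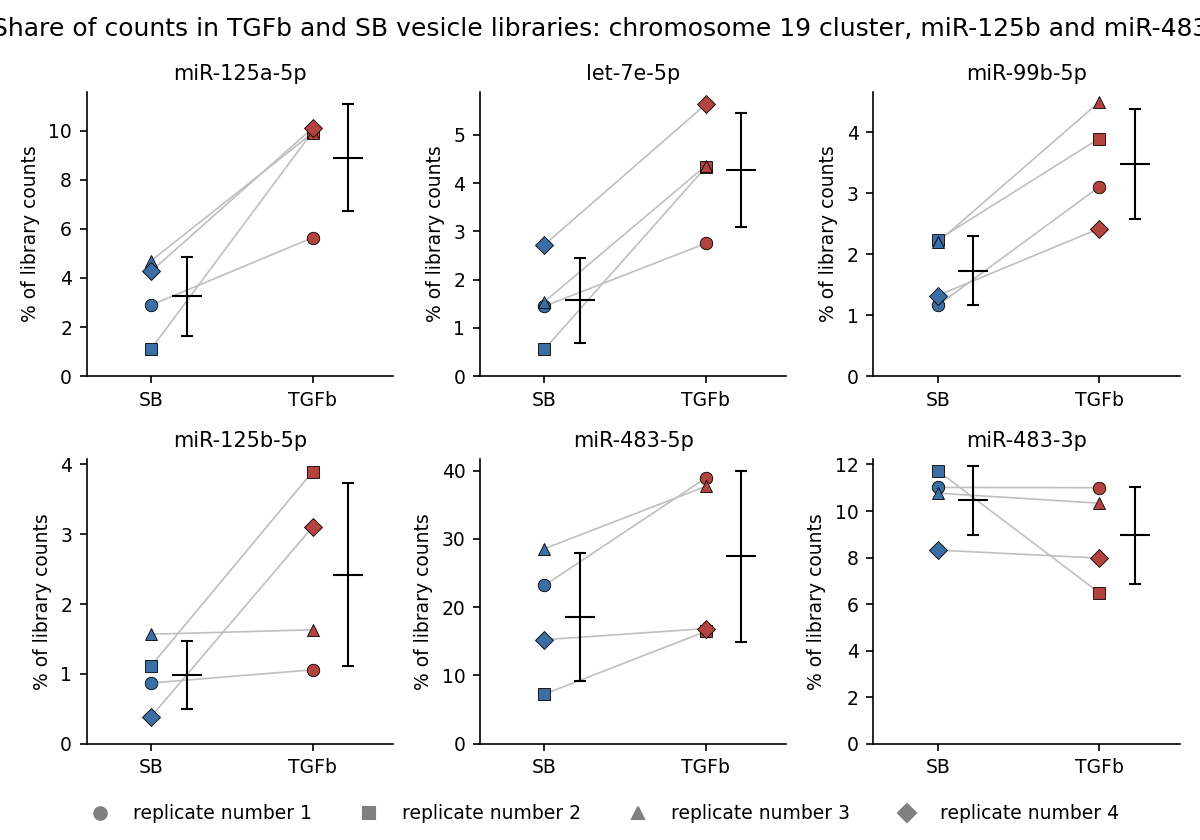
Share of each library's miRNA counts (%, vertical axis from 0) in the 4 SB and 4 TGFb libraries for the chromosome 19 cluster, miR-125b-5p and the arms of miR-483. Symbols are replicate numbers, grey lines join libraries of the same number, and bars are the mean ± SD (n = 4). In the top panels, the highest SB library lies below the lowest TGFb library, at 4.70% against 5.64% for miR-125a-5p, 2.72% against 2.75% for let-7e-5p and 2.23% against 2.42% for miR-99b-5p.

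Among all 14 libraries, the 4 of SB had the lowest summed shares of the cluster. The summed share was 23.6%, 18.1% and 9.60% in NT replicates 1, 3 and 4, a mean of 17.1% ± 7.03 (SD, n = 3), and 10.1% ± 0.517 (SD, n = 3) in FGF. The highest SB library, at 8.44%, lay below the lowest of the other groups, FGF 2 at 9.57%, which rests on 11 of 115 counts. The TGFb libraries lay inside the NT range. NT totals were 14862, 9462 and 1010 counts, so the NT shares fell with depth. The part of depth in these comparisons with NT was not tested. For miR-125a-5p the log2 fold change from NT was -0.37 in TGFb (SE 0.51, edgeR adjusted p = 0.935) and -1.98 in SB (SE 0.53, edgeR adjusted p = 0.0396), the single miRNA of 47 (2.13%) that passed against NT in SB. None (0%) passed against NT in TGFb by edgeR. These comparisons and the one between TGFb and SB share libraries, so they are set side by side as values only. For let-7e-5p the log2 fold changes from NT were 0.75 in TGFb and -0.83 in SB, and for miR-99b-5p they were 0.08 and -1.20, none of which passed the test.

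**Figure D2:**
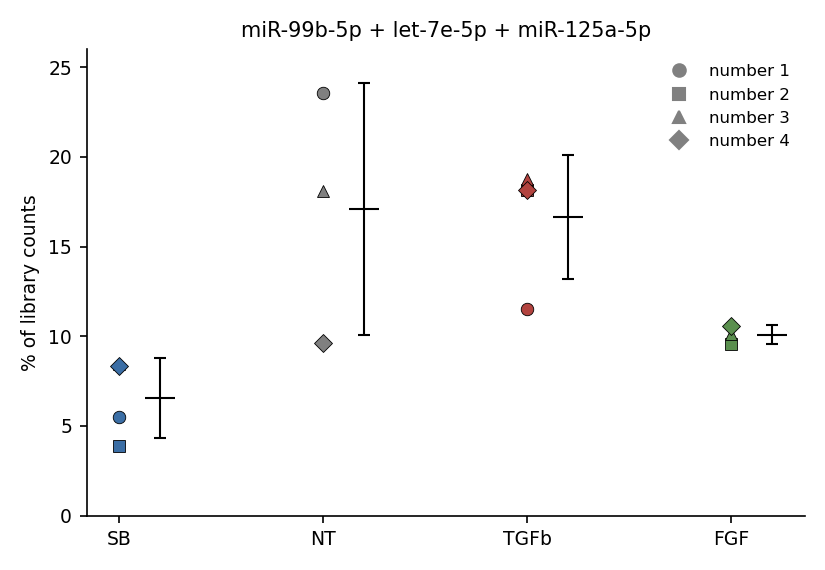
Summed share of miR-99b-5p, let-7e-5p and miR-125a-5p (% of library counts, vertical axis from 0) in the SB, NT, TGFb and FGF libraries. Symbols are replicate numbers and bars are the mean ± SD (n = 4 for SB and TGFb, n = 3 for NT and FGF). The SB libraries run from 3.91% to 8.44% and the TGFb libraries from 11.5% to 18.8%.

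The opposite arms of the cluster's hairpins, which are mostly discarded when the mature strand is loaded, were close to absent. miR-99b-3p had 14 counts in TGFb and 9 in SB, miR-125a-3p had 0 and 2, and let-7e-3p had none in the 8 libraries. The relatives encoded on chromosomes 11 and 21 were nearly absent for the miR-99 seed, with 2 and 3 counts of miR-99a-5p and 5 and 5 of miR-100-5p in TGFb and SB. The cluster member therefore made up most counts of that seed, 97.8% to 100% in TGFb and 80% to 100% in SB. The 80% of SB 1 and of SB 2 rests on 4 of 5 counts each.

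miR-125b-5p, the relative of miR-125a-5p encoded on chromosomes 11 and 21, had a higher share in TGFb at all 4 replicate numbers. Its shares were 1.06%, 3.90%, 1.63% and 3.10% in TGFb and 0.870%, 1.12%, 1.57% and 0.389% in SB. The ranges overlapped, and the within-number ratios were uneven: 1.22 (exact 95% interval 0.344 to 6.56), 3.49 (0.722 to 33.2), 1.04 (0.758 to 1.44) and 7.99 (3.29 to 25.2). Thus number 3, with 122 and 60 counts, gave nearly equal shares, while number 4 gave the largest ratio from 86 counts against 5. The log2 fold change was 1.42 (SE 0.61, 95% interval 0.16 to 2.68, edgeR adjusted p = 0.333). Both tested miRNAs with the CCCUGAG seed thus had positive estimates, and miR-125a-5p made up 71.9% to 85.9% of their counts in TGFb and 50% to 91.7% in SB. The 50% is 2 of 4 counts in SB 2.

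The let-7 family showed no common direction. Of its 5 tested members, let-7e-5p and let-7a-5p had the higher fitted level in TGFb and let-7b-5p, let-7c-5p and let-7i-5p the higher one in SB, with log2 fold changes from -2.36 to 1.59. The share of let-7e-5p among all counts of the family does not depend on how libraries are scaled. It was 61.9%, 35.7%, 77.6% and 75.7% in TGFb and 16.7%, 3.23%, 72.8% and 60.3% in SB, higher in TGFb at all 4 numbers, but the groups overlapped. The other let-7 counts were 24, 18, 94 and 50 in TGFb and 25, 30, 22 and 23 in SB, so in SB they did not rise with the library total. TGFb was also the deeper library at every number, and the part of depth in this ratio was not tested. The SB 2 value rests on 1 of 31 counts. let-7b-5p took 0.635%, 4.76%, 0.147% and 0.397% in TGFb and 3.19%, 7.82%, 0.183% and 0.778% in SB. These shares came from similar counts in every library, 9, 11, 11 and 11 in TGFb and 11, 14, 7 and 10 in SB, so they were highest in the libraries with the lowest totals. Its log2 fold change was -1.09 (SE 1.06, edgeR adjusted p = 0.879), and it was 0.35 among libraries of at least 500 counts. let-7a-5p, with a log2 fold change of 0.50 (SE 0.84, edgeR adjusted p = 0.907), had a higher share in TGFb at 2 of 4 numbers. Among libraries of both groups let-7i-5p had at most 4 counts, and let-7c-5p had 23 counts in TGFb 3 and at most 5 in the other 7.

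**Figure D3:**
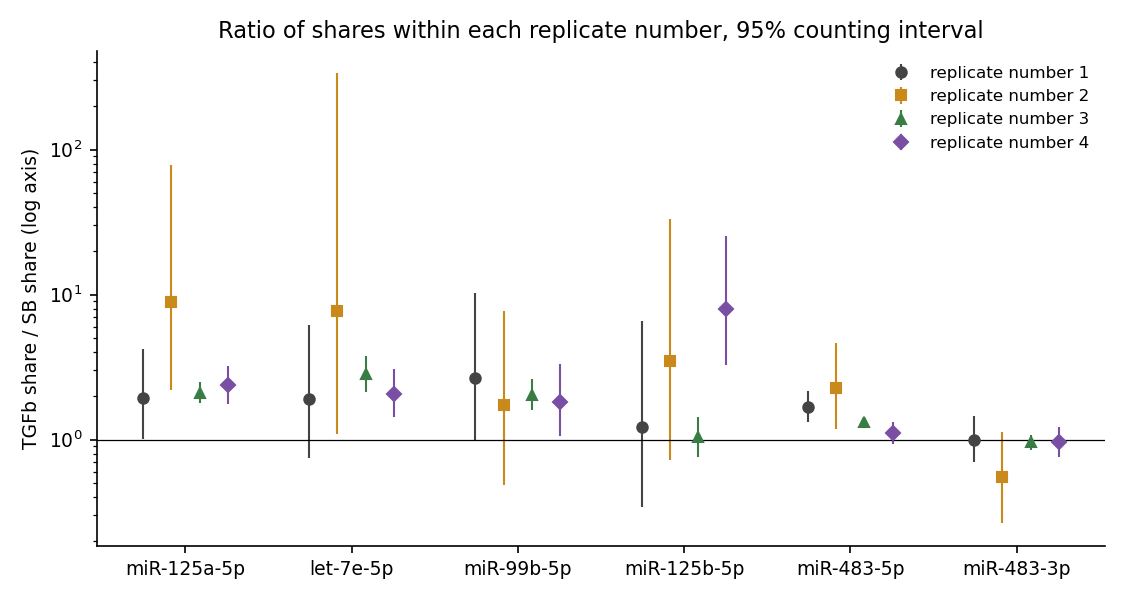
Ratio of the TGFb share to the SB share (log axis, 1 = equal) within each replicate number for 6 miRNAs, with exact 95% intervals from the counts. All 4 ratios lie above 1 for miR-125a-5p, let-7e-5p, miR-99b-5p, miR-125b-5p and miR-483-5p, and for miR-483-3p they lie between 0.553 and 0.999.

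The most abundant miRNA in these vesicles was miR-483-5p, encoded with miR-483-3p by MIR483 at chr11:2134134-2134209 (minus strand) in an intron of IGF2, the gene of a fetal growth factor. It took 38.9%, 16.5%, 37.7% and 16.9% of counts in TGFb and 23.2%, 7.26%, 28.6% and 15.2% in SB. Each TGFb library exceeded the SB library of its number, by 1.68 (exact 95% interval 1.33 to 2.15), 2.27 (1.18 to 4.63), 1.32 (1.23 to 1.42) and 1.11 (0.934 to 1.31) times. The ranges of the groups overlapped, and the means were 27.5% ± 12.5 (SD, n = 4) and 18.6% ± 9.31 (SD, n = 4), with a log2 fold change of 0.90 (SE 0.59, 95% interval -0.32 to 2.11, edgeR adjusted p = 0.787). Fitted against NT with the same libraries, miR-483-5p had log2 fold changes of 0.30 in TGFb and -0.60 in SB.

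The other arm, miR-483-3p, had nearly equal shares in both groups at 3 of 4 numbers. It took 11.0%, 6.49%, 10.3% and 7.98% in TGFb and 11.0%, 11.7%, 10.8% and 8.32% in SB. The share was nominally lower in TGFb at all 4 numbers, but the ratio was 0.999, 0.960 and 0.959 at 3 of them and 0.553 (exact 95% interval 0.265 to 1.13) at number 2. Its log2 fold change after TMM scaling was 0.13 (SE 0.47, 95% interval -0.83 to 1.09), and turned to -0.17 with RLE factors and to -0.26 with library size, so no direction is given. Of the counts of both arms together, the 5p arm made up 78.0%, 71.7%, 78.5% and 67.9% in TGFb and 67.8%, 38.2%, 72.6% and 64.7% in SB. This ratio within a hairpin was higher in TGFb at each number, with overlapping groups (74.0% ± 5.12 against 60.8% ± 15.4, SD, n = 4 each). The SB 2 value rests on 13 of 34 counts. Wilson 95% intervals of same-numbered libraries overlapped at numbers 1 and 4 but not at numbers 2 and 3. Replicates of 1 group also differed: 5p counts per 3p count were 1.5, 15.6 and 2.31 in FGF 2, FGF 3 and FGF 4.

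miR-181a-5p, known for tuning signalling in T cells, had 11, 1, 78 and 42 counts in TGFb and 0, 0, 20 and 12 in SB. The shares were 0.776%, 0.433%, 1.04% and 1.52% in TGFb and 0%, 0%, 0.523% and 0.933% in SB. The TGFb library was higher at every number, but SB 1 and SB 2 allow shares of up to 0.870% and 1.68% at 0 counts. The log2 fold change was 1.32 (SE 0.82, edgeR adjusted p = 0.783). Together with the cluster, miR-125b-5p and miR-483-5p, it made 6 of 47 miRNAs (12.8%) with a higher share in TGFb at all 4 numbers. miR-320d (log2 fold change 0.77, SE 0.79) and miR-221-3p (0.84, SE 0.90), the other pair among the 8 smallest p-values on the TGFb side, were higher in TGFb at 3 of 4 numbers. At number 1 the SB library was at 0 for both, which allows up to 0.870%, above their TGFb 1 shares of 0.282% and 0.564%. Without TGFb 3, which held 95 of its counts, the estimate of miR-320d was 0.012. The same count in the other direction was also 6 of 47 (12.8%), namely miR-1246, miR-7704, miR-30d-5p, let-7b-5p, miR-423-3p and miR-483-3p.

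Of the miRNAs with higher mean shares in SB, 3 short ones are shown with the seed in capitals. miR-1290 had the smallest unadjusted p on that side, the SB shares of miR-7704 lay wholly above those in TGFb, and miR-1246 was the most abundant of the 3.
miR-1246: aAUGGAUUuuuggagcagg
miR-1290: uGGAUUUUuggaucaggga
miR-7704: cGGGGUCGgcggcgacgug
Each has 19 bases, and miR-7704 consists of G and C at 84.2% of its positions. miR-1246 and miR-1290 are known from the literature to match fragments of a small nuclear RNA, and MIR7704 (chr2:176188843-176188901, plus strand) lies in an exon of HOXD1 and opposite an exon of the non-coding gene HAGLR. Whether these reads came from miRNA hairpins was not tested.

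miR-7704 was the 1 tested miRNA of 47 (2.13%) whose shares in SB lay wholly above those in TGFb. It took 1.76%, 0%, 0% and 1.44% in TGFb and 5.51%, 3.91%, 2.04% and 2.64% in SB, from 25, 0, 0 and 40 counts and 19, 7, 78 and 34 counts. TGFb 3 was the deepest of the 8 libraries and yet had none, and the exact 95% upper limit of the ratio of its share to that of SB 3 was 0.0248. At number 2, with fewer counts, that upper limit was 0.538. The FGF 3 library was also at 0 while FGF 2 stood at 6.96%, so large differences between replicates of 1 group occurred for this miRNA, and its log2 fold change of -1.58 had an SE of 1.42 (95% interval -4.62 to 1.47, edgeR adjusted p = 0.879).

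miR-1290 had the smallest unadjusted p on the SB side. Its counts were 1, 0, 17 and 8 in TGFb and 4, 0, 33 and 15 in SB, which gave shares of 0.0705%, 0%, 0.227% and 0.289% against 1.16%, 0%, 0.863% and 1.17%. Apart from number 2, where both libraries were at 0, all SB libraries were above all TGFb ones. The log2 fold change was -1.87 (SE 0.94, 95% interval -3.81 to 0.07, edgeR adjusted p = 0.544). miR-1246 took 2.68%, 4.76%, 2.26% and 2.09% in TGFb and 4.06%, 5.59%, 7.16% and 2.88% in SB. It was higher in SB at all 4 numbers, with overlapping groups and a log2 fold change of -0.57 (SE 0.47, 95% interval -1.53 to 0.39, edgeR adjusted p = 0.879).

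miR-30d-5p, of a family that restrains mesenchymal genes in several epithelia, took 1.13%, 0.433%, 0.735% and 0.397% in TGFb and 2.03%, 1.68%, 1.54% and 1.09% in SB. The groups overlapped only through TGFb 1 and SB 4. The summed share of the miR-30 family was 0.866% to 1.48% in TGFb and 1.88% to 3.35% in SB, with no overlap, from 132 and 121 counts. It was among 15 list sums formed, and the lists were chosen with earlier results of these data known, so the lack of overlap was not tested. Only 2 of its 5 members could be tested, and neither passed: the log2 fold change was -0.79 for miR-30d-5p (SE 0.75, edgeR adjusted p = 0.879) and -0.78 for miR-30a-5p (SE 1.18, edgeR adjusted p = 0.907).

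miR-16-5p, a ubiquitous repressor of cell-cycle genes, took 0.494%, 0.866%, 0.321% and 1.41% in TGFb and 2.61%, 0.559%, 1.46% and 3.42% in SB. It was higher in SB at 3 of 4 numbers, the exception being the shallow number 2 with 2 counts against 1. Its log2 fold change was -1.20 (SE 0.81, 95% interval -2.87 to 0.47, edgeR adjusted p = 0.787). miR-148b-3p, whose family targets DNA methyltransferase transcripts, was also higher in SB at 3 of 4 numbers, with an estimate of -1.18 on the log2 scale (SE 0.97, edgeR adjusted p = 0.879).

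**Figure D4:**
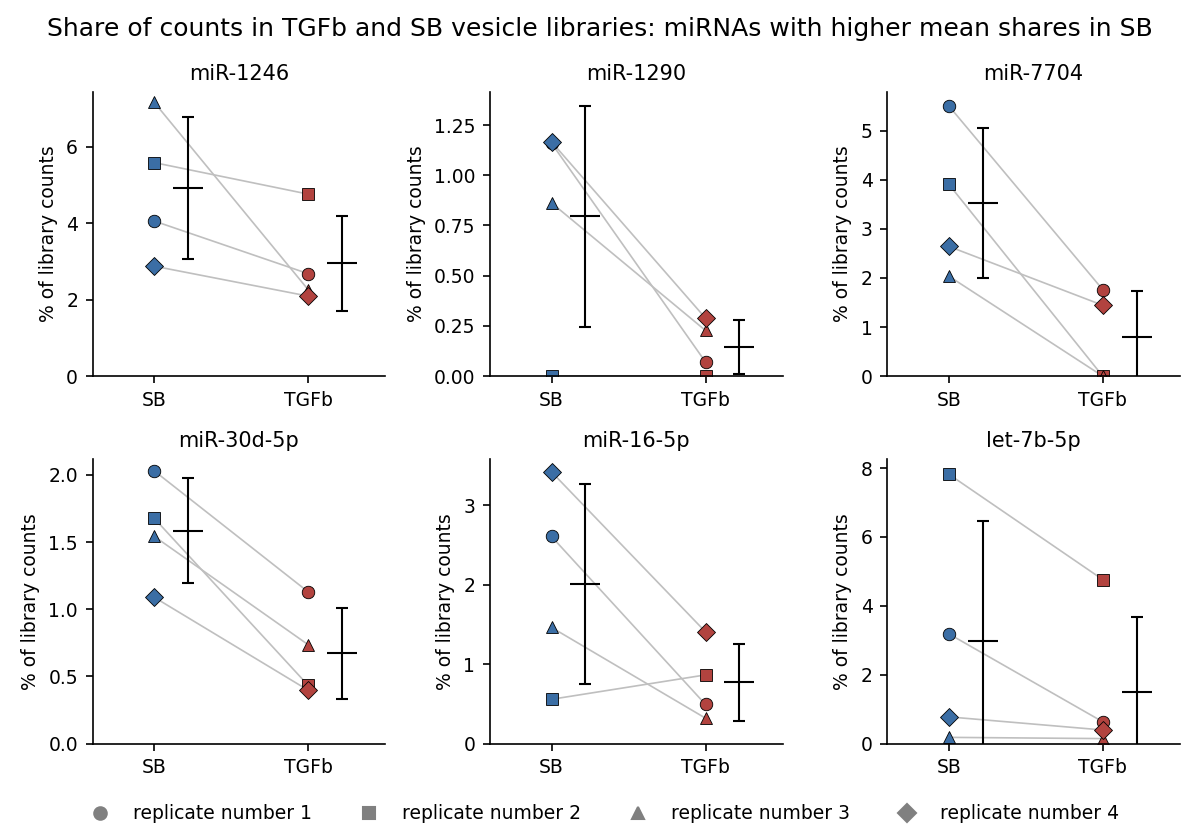
Share of each library's miRNA counts (%, vertical axis from 0) in the SB and TGFb libraries for 6 miRNAs with higher mean shares in SB. Symbols are replicate numbers, grey lines join libraries of the same number, and bars are the mean ± SD (n = 4), drawn only down to 0 for miR-7704 and let-7b-5p. The SB libraries of miR-7704 run from 2.04% to 5.51% and the TGFb libraries from 0% to 1.76%.

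Among 20 miRNAs known from other tissues to be raised by TGF-β, 19 had counts and 7 could be tested. Of these 7, 6 had the higher fitted level in TGFb and 1 in SB, with a median log2 fold change of 1.32 against -0.08 over all 47, and none passed the adjusted threshold. The list was drawn up with earlier results of these data known and holds the chromosome 19 cluster and miR-125b-5p, so its count is not independent evidence of a direction. Outside those 4, the tested members were miR-181a-5p, miR-21-5p and miR-143-3p. miR-21-5p, whose processing SMAD proteins promote, took 0.494%, 3.90%, 0.629% and 3.61% in TGFb and 2.90%, 1.68%, 0.706% and 1.24% in SB. It was higher in TGFb at numbers 2 and 4 and lower at 1 and 3 (log2 fold change 0.62, SE 0.75, edgeR adjusted p = 0.898). miR-143-3p, a smooth muscle miRNA and also a TGF-β target, had 1, 3, 13 and 17 counts in TGFb and 5, 3, 1 and 10 in SB, with a log2 fold change of -0.72 (SE 1.17, edgeR adjusted p = 0.907).

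Of 12 miRNAs known to be lowered by TGF-β, 11 had counts and 3 were tested, all with negative estimates (median -0.78) and none past the threshold: miR-30a-5p, miR-30d-5p and miR-205-5p. Over all 47 tested, 27 had negative estimates, and the median was -0.08. The estimate of miR-205-5p, -0.08 (SE 1.70), was that median itself and turned positive with library sizes over all miRNAs (0.12). This list, too, was drawn up with earlier results of these data known, so its count is not independent evidence of a direction. The miR-29 family, which represses collagen genes, and the miR-200 family, which guards the epithelial state, had too few counts for the test. The miR-17-92 cluster and its paralogs, which promote proliferation, had 3 tested members of 12, all with estimates slightly toward SB: miR-25-3p at -0.81 (SE 1.03), miR-93-5p at -0.30 (SE 0.71) and miR-92a-3p at -0.07 (SE 0.43). The estimate of miR-92a-3p was 0.18 with library sizes over all miRNAs. Its interval of -0.96 to 0.82 was among the narrower ones. miR-23, miR-27 and miR-24 had 132 counts in TGFb and 57 in SB, and none of the 5 members could be tested.

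Markers of other sources were sparse. Of 9 miRNAs of pluripotent cells 7 were at 0 in all 8 libraries, and the list summed to 2 counts in TGFb and 1 in SB. Of 7 muscle miRNAs 4 were at 0, with 6 counts in TGFb and 12 in SB. The epithelial list (miR-200 family, miR-203a-3p and miR-205-5p) had counts of all 7 members, summing to 0.147% to 1.30% of counts in TGFb and 0% to 1.71% in SB. Red-cell and serum miRNAs summed to 0% to 0.253% in TGFb and 0% to 3.91% in SB. The upper value came from 7 counts of the liver miRNA miR-122-5p in SB 2, and this miRNA had 1, 0, 2 and 4 counts in TGFb and 0, 7, 0 and 10 in SB. Its log2 fold change was -3.20 (SE 1.93, edgeR adjusted p = 0.783), and it moved to -0.75 with the adjusted table, -0.99 with the depth covariate and -1.22 without the libraries of number 2. The endothelial miR-126 arms had 18 counts in each group, from 0.0535% to 0.866% in TGFb and 0% to 3.91% in SB, and the log2 fold change of miR-126-3p was -1.65 (SE 1.27, edgeR adjusted p = 0.879). The neural miR-9-5p had 25 counts in TGFb and 32 in SB, with a log2 fold change of -0.67 (SE 1.10, edgeR adjusted p = 0.907), while miR-9-3p and miR-124-3p were at 0. The part of these sources in the results was not tested.

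**Figure D5:**
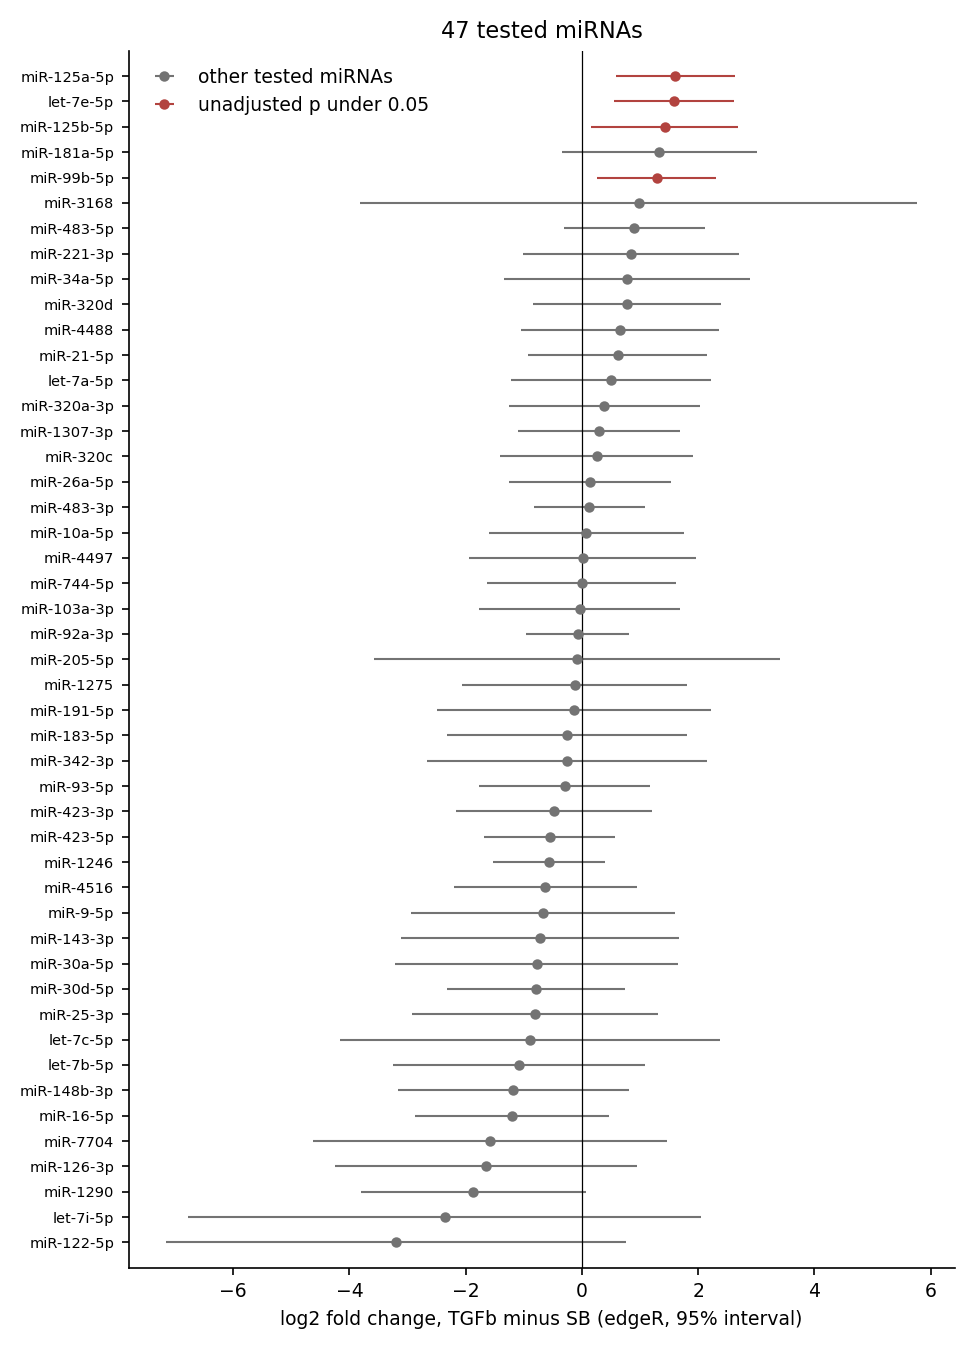
Log2 fold change (TGFb minus SB, edgeR, horizontal axis) with its 95% interval for all 47 tested miRNAs, ordered by the estimate. Red marks the 4 with an unadjusted p under 0.05, whose intervals lie above 0. None of the 47 passed the adjusted threshold in this fit, which has no replicate block.

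The plot of all tested miRNAs shows the 4 intervals that lie above 0 beside 43 that include it. Estimates were spread on both sides within every replicate number: TGFb was above SB for 24, 22, 18 and 20 of the 47 at numbers 1 to 4 and below for 22, 22, 29 and 27. Across the 43 miRNAs matched to a sequence, which share their libraries and are not independent, the G and C content had a Pearson r of 0.08 and a Spearman rho of 0.18 with the log2 fold change. The 283 miRNAs with counts that were not tested included 227 with 10 counts or fewer. The most counted of them, miR-26b-5p, had 90 counts over the 8 libraries, with shares of 0.141% to 0.758% in TGFb and 0.290% to 0.622% in SB. miR-27b-3p, miR-181b-5p, miR-503-5p and miR-4508 followed, and miR-503-5p, which inhibits the cell cycle, was higher in TGFb at the 3 numbers at which it had counts. At number 1 it stood at 0.282% in TGFb, while SB 1, at 0 counts, allows up to 0.870%.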

How the data were processed

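The authors deposited whole-number counts per miRNA for 14 libraries, on GRCh38 per the submitters' processing notes. The counter, the miRNA annotation and the use of molecular identifiers are not given in the sources used here, so a count may stand for a read or for a molecule. A second table that the authors deposited holds adjusted values, used here as a score and only as an alternative, since its adjustment is not stated. Its 2 closing lines that name no miRNA were left out, and 14 per-library columns of CPM were not used.

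edgeR 4.0.16 in R 4.3.3 (quasi-likelihood, robust, TMM) fitted all 14 libraries by group after filterByExpr with a minimum count of 10. P-values were adjusted by Benjamini-Hochberg over the 47 miRNAs of this fit, and in each alternative over the miRNAs it tested, with a threshold of 0.05. Single values were compared by two-sided exact permutation over 70 splits, for which 0.0286 is the smallest possible p. Intervals of within-number ratios are conditional exact binomial. Depth of 179 to 7478 counts in the TGFb and SB libraries limited precision. The other libraries of the fit held 14862, 9462 and 1010 counts (NT 1, 3 and 4) and 115, 3241 and 868 (FGF 2, 3 and 4). All 12 pairs of libraries within groups differed beyond sampling noise by chi-square, so none was merged.

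Alternatives were other scalings, DESeq2 1.42.0, limma 3.58.1 on the adjusted values, other filters, a depth covariate, a replicate block and leaving out libraries. The miRNAs named are the 8 smallest p-values in each direction, the 10 with the highest mean share, tested members of 15 lists and the 5 untested miRNAs with most counts. miR-423-3p, miR-193b-5p and the low-count relatives were added after their values were seen. The groups compared, members and lists were chosen with earlier results of these data known.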

Additional observations from a re-analysis of the deposited data

Results flagged for a closer look

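Shares of the 29 named miRNAs that were tested, and 3 values per library, were examined as 64 sets of 4 libraries. In 4 of them 1 library lay far from the other 3, where chance gives about 3.2. miR-125a-5p stood at 5.64% in TGFb 1, below the other 3 TGFb libraries at 9.91% to 10.1%. let-7i-5p was at 0.866% in TGFb 2, from 2 counts. let-7b-5p was at 4.76% in the same library, the shallowest of its group with 231 counts. miR-205-5p was at 0.855% in SB 4, from 11 counts, and at 0 in the other 3 SB libraries.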

How the results depend on the processing

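The limits are few libraries and few counts: the smallest possible permutation p is 0.0286, and the shallowest TGFb or SB library holds 179 counts. The shallowest library of the fit, FGF 2, holds 115. The number of miRNAs passing was 0 without a replicate block under every scaling, filter, left-out library or left-out replicate number tried on the counts, and 2 (let-7e-5p and miR-125a-5p) with limma on the adjusted table. Replicate numbers were not taken to pair the libraries: the labels do not say so, and 1 same-numbered pair stayed below 0.1. Deviations of same-numbered libraries correlated at 0.0884 to 0.492, above 0.1 in 3 of 4 pairs (mean 0.336). The mean for different numbers was -0.107, but deviations taken within groups draw it below 0 where same numbers correlate. Since 6 of 8 libraries correlated best with their own number, these values do not show that same-numbered libraries are unrelated. Both fits are therefore given, with a median standard error of 0.83 without the block and 0.73 with it. With the replicate block 3 passed: miR-125a-5p (log2 fold change 1.65), let-7e-5p (1.71) and miR-483-5p (0.85), each at an edgeR adjusted p of 0.0212. With the block and only TGFb and SB libraries 3 passed (the chromosome 19 cluster), but of 25 tested miRNAs, so the adjustment covered fewer. With the block and library sizes over all miRNAs, added after seeing the data, 4 of 47 passed (the cluster and miR-483-5p). Leaving out libraries, also in the block fit, gave 0 to 3. In the block fit the 8 TGFb and SB libraries were left out in turn, with 44 to 47 miRNAs tested. The number passing was 0 except without SB 4 (the same 3 as with all libraries) and without TGFb 1 (let-7e-5p, miR-125a-5p and, higher in SB, miR-4497, named after its values were seen).

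In the adjusted table the variance between groups was 21.5% (exact permutation p = 0.0286) and the difference in the share of the 10 most abundant miRNAs was 10.5 percentage points (exact permutation p = 0.0286), both past the threshold. With the replicate block the exact permutation p was 0.125 for all 4 single values, the smallest that 4 signs allow. With libraries left out, the difference in miRNAs at equal depth ran from -10.9 to -5.13, that in the top-10 share from 7.59 to 14.3, the variance from 13.8% to 20.8% and the log10 total from 0.115 to 0.619.

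The block fits that each left out a library were not part of the signs and ranges given here. Of 29 named miRNAs, 18 kept their sign under every other setting in which they could be fitted (24 to 31 settings each), with miR-125a-5p from 1.33 to 1.96, let-7e-5p from 1.31 to 2.03 and miR-99b-5p from 0.85 to 1.66. The others, none past the threshold in any setting, changed sign, and the cause was not tested. miR-483-3p gave -0.17 with RLE, -0.26 with library size, -0.33 with the adjusted table and -0.016 with the depth covariate. miR-92a-3p gave 0.18 with sizes over all miRNAs, 0.23 with those and the block, and 0.10 unfiltered. let-7c-5p gave 0.33 with block and sizes over all miRNAs, 0.48 adjusted and 0.57 with the covariate. miR-205-5p gave 0.12 with sizes over all miRNAs, 0.66 with those and the block, 0.33 with DESeq2, 0.22 unfiltered, 0.45 with the block, 0.98 adjusted and 0.51 with the covariate. miR-143-3p gave 0.30 with the covariate, and miR-93-5p 0.85 adjusted. Among libraries of at least 500 counts, miR-126-3p gave 1.28, let-7b-5p 0.35, miR-143-3p 0.21 and miR-9-5p 0.17. Leaving out libraries or a replicate number gave -2.31 to 0.47 for let-7b-5p, -1.67 to 1.16 for let-7c-5p, -2.25 to 0.11 for miR-126-3p, -1.31 to 0.39 for miR-143-3p, -0.97 to 5.95 for miR-205-5p, -0.056 to 1.52 for miR-21-5p, -2.01 to 0.61 for miR-30a-5p, -0.094 to 0.64 for miR-483-3p, -1.64 to 0.51 for miR-9-5p, -0.22 to 0.29 for miR-92a-3p and -0.57 to 0.19 for miR-93-5p.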
